A study of Mus musculus with 2 samples.

Results

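Peaks of accessible chromatin at long non-coding RNA (lncRNA) genes that stand apart from protein-coding genes were examined in the embryonic mouse striatum. A peak was taken when it overlapped, by at least 1 bp, a window of 1 kb to either side of either end of a RefSeq lncRNA gene span, lay more than 5 kb from every end of a protein-coding gene span and overlapped no such span. This rule found 2610 of the 87174 deposited peaks (2.99%, exact 95% interval 2.88 to 3.11%). Of 6330 peaks at a lncRNA end, 3259 were set aside because they overlapped a protein-coding span and 461 because they lay within 5 kb of a coding end. An lncRNA gene is called lone below when at least 1 of its ends lay outside coding spans and more than 5 kb from coding ends, which held for 8290 of 12637 lncRNA genes (65.6%).

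The data came from single-nucleus ATAC-seq, in which a transposase cuts and tags open DNA in isolated nuclei and every nucleus gets a barcode in a 10x Chromium droplet. All nuclei were wild type, from striatum of embryos at E14.5, on a strain background given as C57BL/6J and CD1. The 2 libraries form 1 group, the labels do not say that they came from separate embryos, and what was deposited is a single peak list for both, with positions but no count, score or library. Read depth and agreement between libraries are therefore unknown, a peak open in a few nuclei cannot be told apart from one weakly open in many, and the intervals given cover counting of genes or peaks only. Peaks lay at an end of all 11 ganglionic eminence and striatal genes looked up (Dlx1, Dlx2, Dlx5, Dlx6, Gsx2, Sp9, Meis2, Foxp1, Ebf1, Isl1 and Bcl11b), with a median widest peak of 9310 bp. They also lay at all 4 neocortical genes looked up, Emx1, Neurod6, Tbr1 and Eomes (median widest 3476.5 bp). Of endothelial and microglial markers, Cldn5 had an end peak of 2228 bp, and Pecam1, Csf1r and Aif1 had none. Of 4 markers of blood, liver, muscle and pancreas, Myod1 (3241 bp) and Pdx1 (638 bp) had an end peak and Gata1 and Alb had none. Over all protein-coding genes 67.3% had an end peak, so most of any such list would have one.

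Long non-coding RNAs are transcripts without a recognised protein product. Some act as RNA at chromatin, as Xist does on the inactive X chromosome. Others are the primary transcripts from which microRNAs are cut, and for many only the act of transcription, or the DNA elements at the gene, is known to matter. MicroRNAs guide silencing complexes to messenger RNAs mainly through their seed, bases 2 to 8. Of the microRNAs of the developing brain, miR-9 limits progenitor proliferation and promotes neuronal differentiation, and miR-124 is the abundant microRNA of neurons. Both are made from several gene copies with lncRNA host transcripts, and the hosts described below were lone.

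The widest of the peaks lay over hosts of miR-9, whose mature products are given to show that the 3 loci yield the same RNAs. Their sequences, from RefSeq, run 5′ to 3′ with the seed in capitals, and are identical at Mir9-1 in Gm3764, Mir9-2 in C130071C03Rik and Mir9-3 in Mir9-3hg.
miR-9-5p: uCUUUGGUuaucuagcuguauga
miR-9-3p: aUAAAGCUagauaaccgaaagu
miR-125b-5p, cut from Mir100hg: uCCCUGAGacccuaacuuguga
miR-183-5p, cut from Mirc35hg: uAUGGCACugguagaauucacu
miR-96-5p, cut from Mirc35hg: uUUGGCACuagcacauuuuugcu
miR-182-5p, cut from Mirc35hg: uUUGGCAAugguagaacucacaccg
The Mirc35hg products are the sensory-organ cluster miR-183, miR-96 and miR-182, whose 3 seeds differ from one another.

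Promoters are printed next for the 4 widest peaks that hold the whole promoter window of a lone gene with an entry in the RefSeq promoter table. The 2 such promoters with the lowest CpG content follow, because CpG content differed at the median between promoters under a peak and the rest. Each runs 5′ to 3′ on the gene's strand from 250 bases before to 50 bases after the start, from RefSeq on GRCm38.p6, the assembly named mm10, with CpG dinucleotides in capitals.
Mir9-3hg (chr7:79499776-79500075, plus strand): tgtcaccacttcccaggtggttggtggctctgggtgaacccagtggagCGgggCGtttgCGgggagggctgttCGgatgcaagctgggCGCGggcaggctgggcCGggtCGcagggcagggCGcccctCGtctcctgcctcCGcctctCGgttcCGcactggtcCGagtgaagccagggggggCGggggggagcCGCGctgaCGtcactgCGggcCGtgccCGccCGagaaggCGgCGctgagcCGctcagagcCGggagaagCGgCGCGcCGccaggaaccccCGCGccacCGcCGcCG
C130071C03Rik (chr13:83721131-83721430, plus strand): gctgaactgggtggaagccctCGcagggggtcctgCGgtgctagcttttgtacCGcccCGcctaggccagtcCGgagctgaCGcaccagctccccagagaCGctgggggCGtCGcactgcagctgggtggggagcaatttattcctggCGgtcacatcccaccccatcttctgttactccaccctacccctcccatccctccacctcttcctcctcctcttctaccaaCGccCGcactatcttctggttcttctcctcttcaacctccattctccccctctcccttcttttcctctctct
Gm51670 (chr9:41579597-41579896, minus strand): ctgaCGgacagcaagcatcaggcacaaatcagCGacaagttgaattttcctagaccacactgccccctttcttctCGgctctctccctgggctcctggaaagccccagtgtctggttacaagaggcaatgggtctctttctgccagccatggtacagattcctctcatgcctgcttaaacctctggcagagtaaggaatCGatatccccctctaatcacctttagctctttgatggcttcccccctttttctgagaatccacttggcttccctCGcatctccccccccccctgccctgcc
2810410L24Rik (chr11:120189807-120190106, minus strand): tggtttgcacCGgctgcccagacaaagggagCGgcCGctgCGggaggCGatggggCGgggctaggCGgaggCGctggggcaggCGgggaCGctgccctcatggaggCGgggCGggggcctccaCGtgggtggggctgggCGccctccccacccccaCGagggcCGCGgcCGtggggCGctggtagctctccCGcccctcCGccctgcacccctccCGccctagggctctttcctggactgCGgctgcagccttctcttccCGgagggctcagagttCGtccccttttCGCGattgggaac
Gm4258 (chr1:137898214-137898513, plus strand): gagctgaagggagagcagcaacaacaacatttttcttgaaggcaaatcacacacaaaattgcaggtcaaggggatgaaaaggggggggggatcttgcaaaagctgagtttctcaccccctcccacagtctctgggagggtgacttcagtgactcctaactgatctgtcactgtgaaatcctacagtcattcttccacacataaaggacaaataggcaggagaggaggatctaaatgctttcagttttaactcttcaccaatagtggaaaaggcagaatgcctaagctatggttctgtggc
Gm16013 (chr11:71436435-71436734, minus strand): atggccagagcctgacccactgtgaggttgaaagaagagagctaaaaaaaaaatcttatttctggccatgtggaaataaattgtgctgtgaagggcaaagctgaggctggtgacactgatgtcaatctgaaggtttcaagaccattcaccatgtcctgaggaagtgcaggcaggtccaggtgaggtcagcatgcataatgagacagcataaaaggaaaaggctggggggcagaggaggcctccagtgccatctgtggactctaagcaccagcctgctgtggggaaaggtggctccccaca
They held 35, 12, 5, 27, 0 and 0 CpGs in this order, and the peaks over them were 26231, 21797, 11144, 8762, 3622 and 830 bp wide.

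At the Mir9-3 host the peaks were among the broadest of the genome. Mir9-3hg spans 79500026 to 79534403 on chromosome 7 (34378 bp, plus strand), 32115 bp from its nearest coding gene, Polg. A peak of 26231 bp, from 79495547 to 79521778, lay over its start, and only 1 of all 87174 peaks was wider. A second, of 7208 bp, lay over its far end, and 5 peaks together covered 82.8% of the span. The Mir9-3 hairpin (79505264 to 79505353) lay inside the wide peak, downstream of the printed promoter.

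The other miR-9 hosts had the same layout of a broad peak at the start and another at the far end. C130071C03Rik (83721381 to 83741308 on chromosome 13, plus strand), whose nearest coding gene is the neuronal transcription factor gene Mef2c, had a start peak of 21797 bp, rank 8 by width among all peaks. That peak also covered both ends of Gm52046, which runs the other way. The peak at the far end was 5413 bp wide and held the Mir9-2 hairpin, and 93.1% of the span lay under 3 peaks. Gm3764 (88206673 to 88229959 on chromosome 3, plus strand) had a start peak of 8391 bp, a far-end peak of 6453 bp and 77% of its span under 7 peaks. The Mir9-1 hairpin lay under a further peak in the gene body, which reached neither end of the gene and is not among the 2610.

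The miR-124 hosts lay under broad peaks too. Mir124a-1hg (64588115 to 64593961 on chromosome 14) lay wholly inside a peak of 11490 bp, rank 32. At Mir124-2hg (17789921 to 17800071 on chromosome 3) a peak of 6774 bp, shared with the start of Gm30340, covered the lower end, and 80.9% of the span lay under 2 peaks. Mir100hg, the host of miR-100, let-7a-2 and miR-125b-1, had a start peak of 4923 bp, and its Mir125b-1 hairpin lay far downstream inside a peak of 11144 bp at the start of Gm51670 (rank 37). At Mirc35hg the start peak of 6486 bp was shared with the divergent gene BB283400, while none of its 3 hairpins lay in it.

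**Figure D1:**
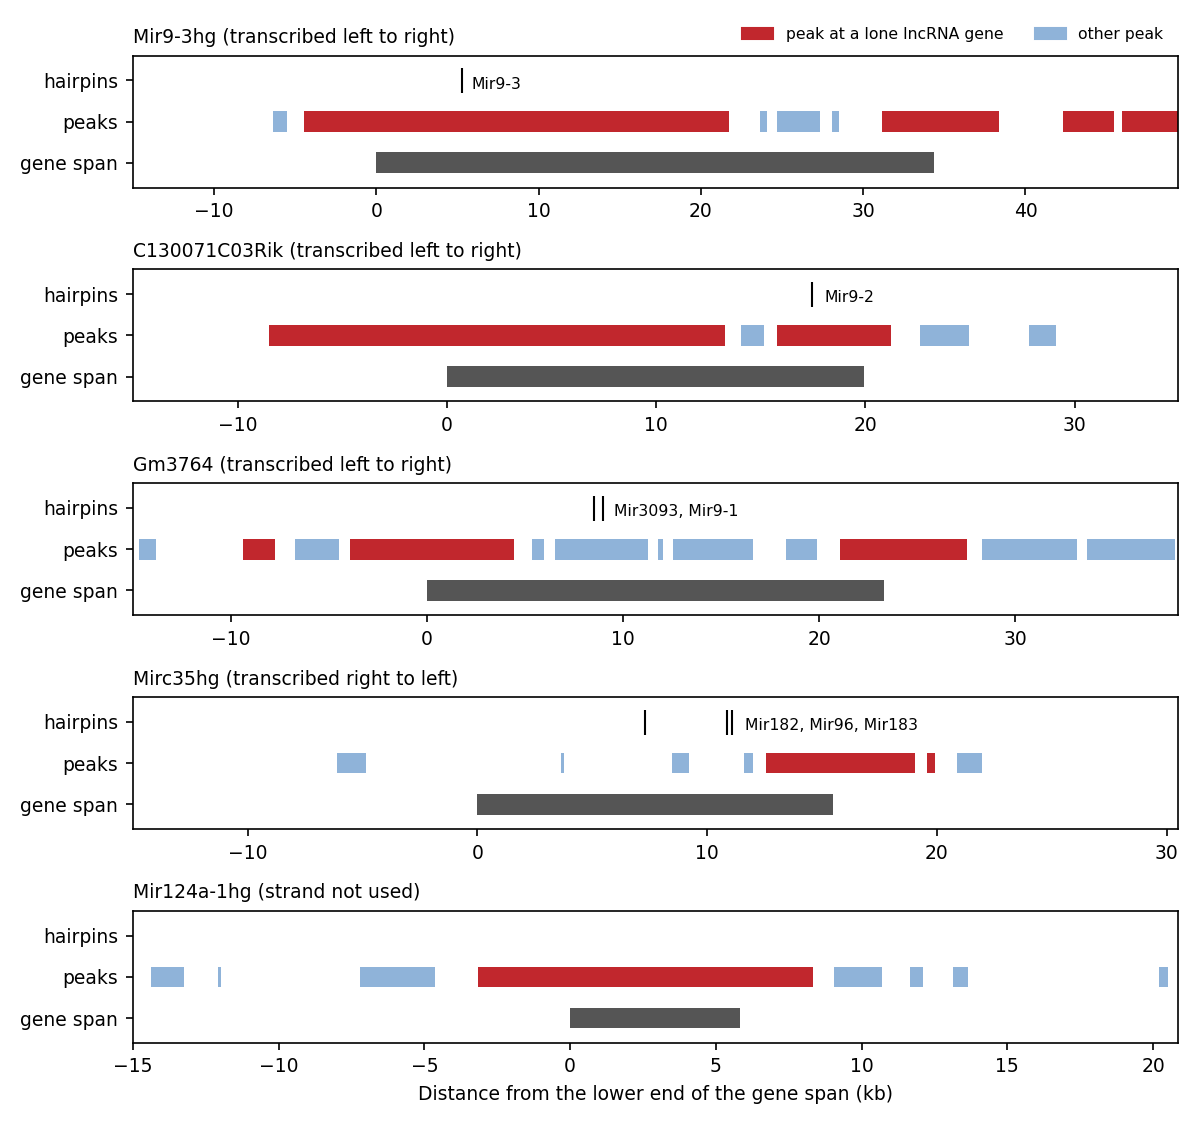
Maps of 5 microRNA host genes on a scale of kb from the lower end of the gene span, with gene spans in grey, peaks at lone lncRNA genes in red, other peaks in blue and hairpins of the RefSeq miRNA table as black ticks. Red blocks of 26231, 21797 and 8391 bp lie over the starts of the 3 miR-9 hosts, and Mir124a-1hg lies wholly inside 1 peak.

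Across all hosts, 34 of the 65 lone lncRNA genes that span a hairpin of the table had a peak of the rule (52.3%, interval 39.5 to 64.9%), against 2346 of the other 8225 (28.5%, 27.5 to 29.5%). Of the 34, 7 had a peak in the broadest 1% (20.6%, 8.7 to 37.9%), that is, wider than 4480 bp. Among the other 2346 lone genes with a peak, 40 did (1.71%, 1.22 to 2.31%). Mir124a-1hg, Mir124-2hg, Mir99ahg and Mir1a-1hg were counted with these other genes, as no hairpin of the table used here lies in their spans. Host genes were also longer (median span 22793 against 10081 bp) and had a curated RefSeq transcript in 63.1% against 25.3%, and the part of these properties in the difference was not tested. The hosts without a peak of the rule included Lincmd1 (miR-206 and miR-133b, of skeletal muscle), Gm13648 (miR-200a, miR-200b and miR-429, of epithelia) and Mir155hg (miR-155, of immune cells). They also included A230057D06Rik (the miR-344 cluster) and the imprinted gene Rian, whose start peak of 592 bp lay 501 bp from a coding end. Hosts of microRNAs of other organs were among those with a peak too, such as Gm31251 (miR-208b, of heart muscle, 72 bp), Gm51876 (miR-196a, of the Hox clusters, 1215 bp) and, by its name, Mir1a-1hg (1603 bp). Mir17hg is named as host of the proliferation-linked miR-17 to miR-92 cluster and had no peak at either end of its span (115044390 to 115046728). Of the hairpins in the table only Mir92-1, from 115044427, lies in that span, so the start of the whole cluster was not examined.

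Taking all lone lncRNA genes, 2380 of 8290 had a peak of the rule (28.7%, 27.7 to 29.7%), against 4.34% of pseudogenes taken by the same rule (321 of 7396). Counting any peak at either end, also one near or over a coding gene, the share was 38.7% for lone lncRNA genes (3207 of 8290, 37.6 to 39.7%) and 4.88% for the pseudogenes. On that count it was 67.3% for protein-coding genes (14645 of 21770), 43.9% for all lncRNA genes (5549 of 12637) and 53.9% for the 4347 lncRNA genes that are not lone. Counted alike, lone lncRNA genes thus stood between pseudogenes and coding genes, with intervals that did not overlap. Genes with a curated transcript had a peak at 32.1% (682 of 2124) and those with only predicted models at 27.5% (1698 of 6166). Most of the 2380 genes had 1 peak (2044), 314 had 2, 21 had 3 and only Gm36325, next to Fto, had 4.

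**Figure D2:**
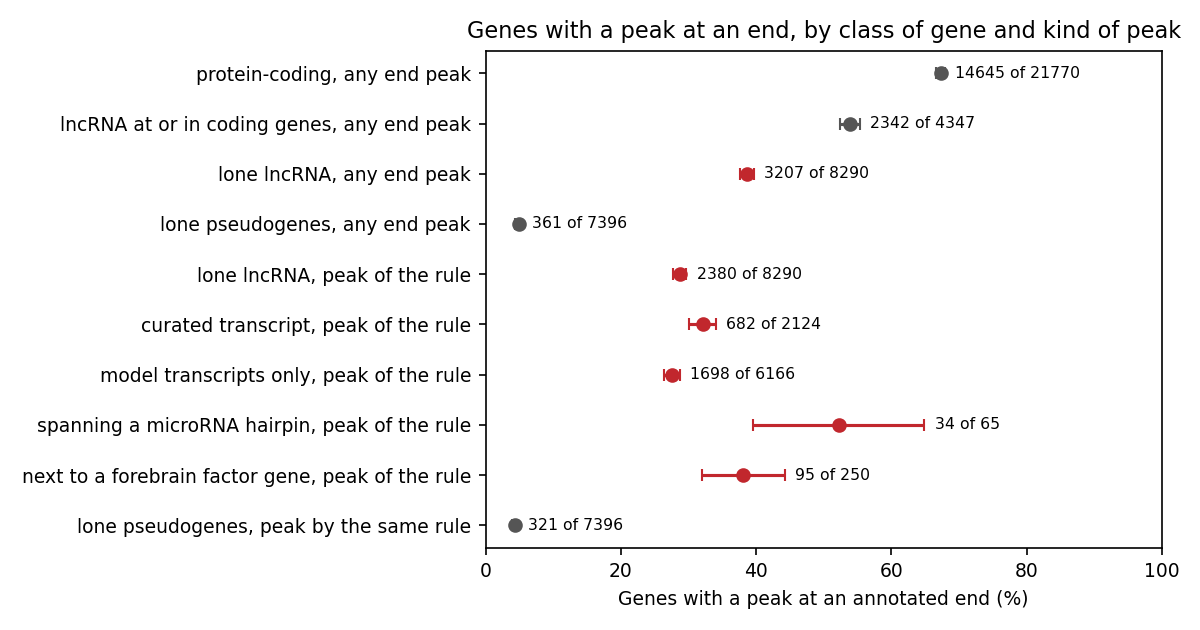
Share of genes with a peak at an annotated end (%, x axis) with exact 95% intervals and counts, by class of gene, for any end peak (upper rows) and for peaks of the rule (lower rows), with lone lncRNA genes and their subsets in red. For any end peak, protein-coding genes lie at 67.3%, lone lncRNA genes at 38.7% and lone pseudogenes at 4.88%.

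By gene length the share with a peak was highest, 33% (31 to 35.1%), for spans of 1 to 5 kb and lowest, 25.6% (23.8 to 27.5%), for spans of 20 to 100 kb, and these intervals did not overlap. It was 25.6% for genes 5 to 10 kb from a coding end, 31.9% at 20 to 50 kb, and 18.8% (49 of 261, 14.2 to 24%) beyond 500 kb. By chromosome it ran from 22.2% on X and 22.5% on chromosome 10 to 38% on chromosome 12, with 1 of 30 genes on Y. The median distance of the 2610 peaks from a coding end was 40533.5 bp, and 352 lay within 10 kb of one. Among the most remote were the peak of 971 bp at the start of Gm13470, 1325938 bp from a coding end, whose nearest coding gene was Zeb2, and that of 394 bp at Gm46835, 1162931 bp from an end of Pcdh18. At the distance limit, Gm33560, 9430091E24Rik and Gm46870 lay just inside, with peaks 5006, 5010 and 5018 bp from a coding end. Gm4598, Gm29838 and 3110006O06Rik lay just outside, at 4995, 4982 and 4952 bp.

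Peaks gathered at the starts of lone lncRNA genes and not at their far ends. Strand was known for 6320 lone genes (76.2%), those with an entry in the promoter table. No lone gene of chromosome 18 (299 genes, 90 with a peak of the rule) has an entry, so the start, CpG and motif values leave it out. The share with an entry is under 80%, so the check is void for all lone genes together. The values hold only for genes with an entry. Among these a peak lay at 1351 of 5434 starts (24.9%, 23.7 to 26%) and at 773 of 5832 far ends (13.3%, 12.4 to 14.2%). In the 3731 genes longer than 4000 bp with both ends lone, a peak lay at the start only in 20.3%, at the far end only in 7.75% and at both in 3.94%. In genes longer than 20000 bp, peak midpoints within 500 bp of the start numbered 75.1 per 1000 starts and 500 bp, against a median of 18.4 (range 10.9 to 27.7) in the flanks, 4.09 times as many. Around far ends the same density was 17 against 19, a ratio of 0.894. The median width was 804.5 bp for the 1210 peaks at a start only (quartiles 455 and 1373 bp) and 596 bp for the 665 at a far end only (373 and 992 bp), so the spreads overlapped widely.

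**Figure D3:**
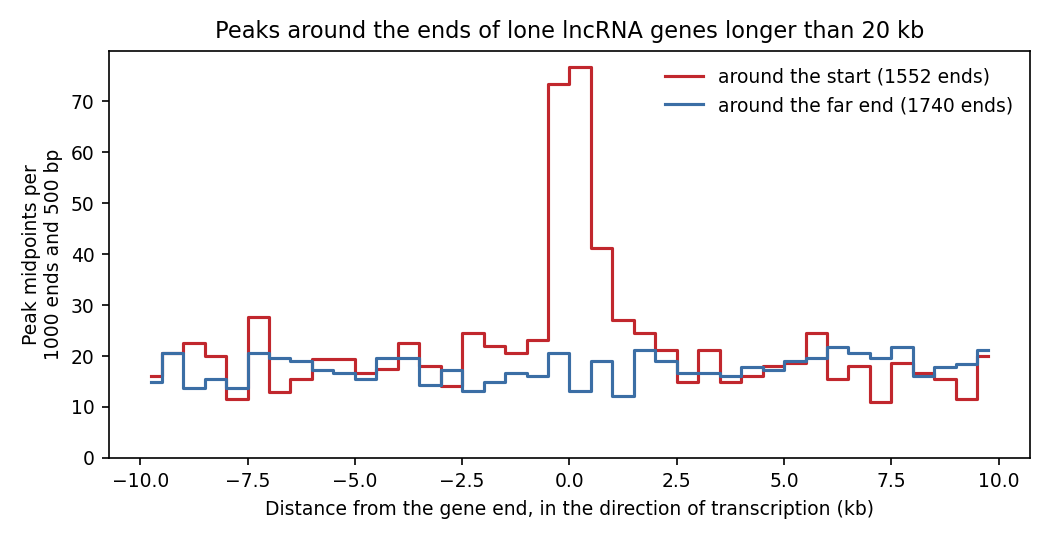
Peak midpoints per 1000 gene ends in bins of 500 bp (y axis) against distance in kb from the end, in the direction of transcription, for lone lncRNA genes longer than 20000 bp. The red line around 1552 starts peaks at 76.68 just past the start, while the blue line around 1740 far ends stays near its flank median of 19.

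The peaks were narrower than those of coding genes and wider than peaks away from genes. Widths ran from 1 to 26231 bp, with a median of 726.5 bp and quartiles of 430 and 1299.5 bp. The 15159 peaks at protein-coding gene ends had a median of 1575 bp, which puts the difference (lone minus coding) at -848.5 bp. The 22340 peaks in no gene, at no gene end and over 5 kb from coding ends had a median of 483.5 bp. An intermediate width was not particular to lone genes. The 1720 peaks at other lncRNA ends and at no coding end had a median of 796 bp (quartiles 435.75 and 1658 bp). Of these, 2.38% were in the broadest 1% (1.72 to 3.22%). Of the 2610 peaks, 42 belonged to the broadest 1% (1.61%, 1.16 to 2.17%), against 4.04% of coding-end peaks (613), 0.116% of the peaks away from genes (26) and 0.998% of all peaks. With peaks taken by midpoint the share was 0.605%, below that of all peaks. Taking a peak at any overlap of 1 bp favours wide peaks, and leaving out peaks that touch a gene or an end window favours narrow ones. The part of this selection in the contrast with the peaks away from genes was not tested. With a window of 2500 bp it was 1.05%. A further 24 (0.92%) were narrower than 20 bp. No 2 peaks of the list were closer than 501 bp. Joining of nearer regions before deposit, not stated anywhere in the labels, would make a broad peak one that need not be open throughout.

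**Figure D4:**
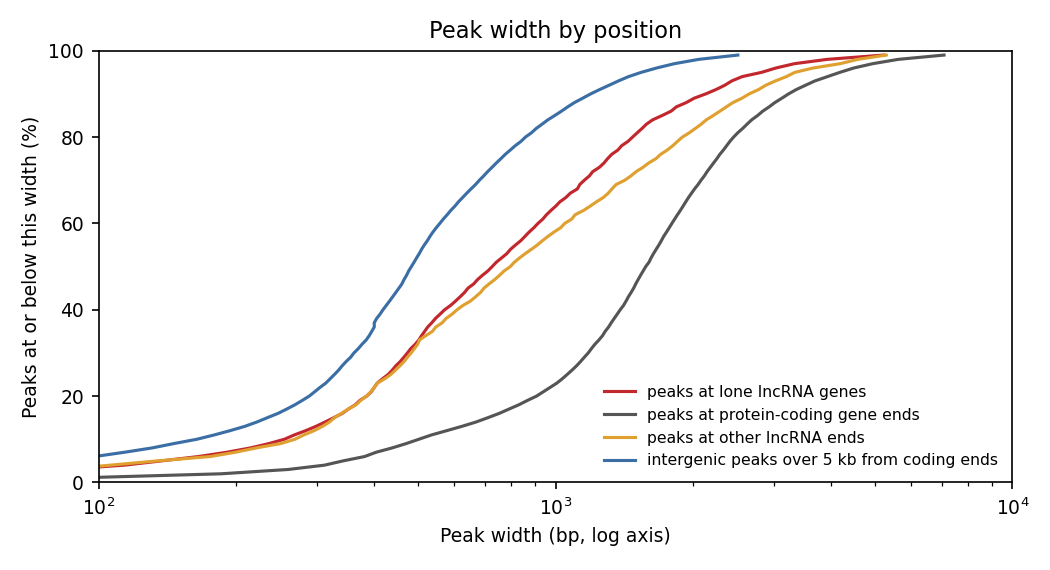
Cumulative share of peaks (%, y axis) against peak width (bp, log axis) for 4 sets of peaks. The red line of the 2610 peaks at lone lncRNA genes, with its median at 726.5 bp, runs between the blue line of intergenic peaks (483.5 bp) and the grey line of coding-end peaks (1575 bp). The orange line is that of peaks at other lncRNA ends (796 bp).

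Apart from the microRNA hosts, the broadest peaks were at genes known mostly by clone names. Gm29890 on chromosome 12 held a peak of 9437 bp (rank 73), 2810410L24Rik lay wholly inside one of 8762 bp (rank 96) and Gm26698 inside one of 7982 bp, 5648 bp from Irf2bpl. A peak of 7588 bp was shared by Gm14488 and Gm39782. Malat1 (5795690 to 5802672 on chromosome 19), the very abundant nuclear speckle RNA, had peaks of 6013 bp over its start and 5057 bp over its far end, which covered 91.8% of the span. Gm33272 on Y (6571 bp) and AY036118 on chromosome 17 (6280 bp) were also among the 20 broadest of the 2610, although Y held only 16 peaks in all. Whether these 2 peaks lie in repeated sequence, where reads map poorly, was not checked, so their widths are uncertain.

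Most peaks touched 1 gene only: 2474 lay at ends of 1 lncRNA gene, 134 at ends of 2 and 2 at ends of 3. Of the 2610, 1216 covered an end base, 849 overlapped the span without reaching its end and 545 lay beside it. Starts of 2 lncRNA genes on opposite strands shared a peak in 44 cases, and in 21 of these the genes ran apart, as at a bidirectional promoter. Those 21 peaks had a median width of 1148 bp over starts a median of 191 bp apart. The widest were at Mirc35hg with BB283400 (6486 bp), Gm34081 with the imprinted gene Meg3 (3848 bp) and 1700031P21Rik with Gm35239 (3451 bp). Their starts lay 2498, 847 and 631 bp apart in this order, farther than the median.

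Promoters of lone genes under a peak were richer in CpG than those not under one, though far poorer than coding promoters under a peak. The measure is the observed over expected ratio, the CpG count times the length over the product of the C and G counts, in the 300-base window printed for the 6 promoters above. A peak overlapped 932 of 5434 lone promoters (17.2%), 1741 of 4099 promoters of other lncRNA genes (42.5%) and 11095 of 17491 coding promoters (63.4%). The median ratio was 0.337 in lone promoters under a peak (quartiles 0.21 and 0.498) and 0.188 in the rest (0.0992 and 0.304), so the spreads overlapped. In coding promoters it was 0.767 and 0.167. A ratio of at least 0.6 was found in 18% of lone promoters under a peak and 3.02% of the others, and in 74.3% and 3.47% of coding promoters.

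Read the other way, 168 of the 304 lone promoters with a ratio of at least 0.6 lay under a peak (55.3%, 49.5 to 60.9%), against 97.4% of such coding promoters. Below 0.6 the shares were 14.9% (764 of 5130) and 31.6%. On either side of 0.6 the share was lower in lone promoters, and the intervals did not overlap. Below 0.6 the median ratio under a peak was still unequal, 0.293 in lone and 0.442 in coding promoters. The part of CpG in the difference was not tested. Of the 932, 904 lay under a peak of the rule. Those peaks had a median width of 1451 bp over the 164 promoters with a ratio of at least 0.6 (quartiles 1036.5 and 2305 bp) and of 966.5 bp over the other 740 (540.5 and 1628.5 bp). The printed promoters span this range, from a ratio of 0.84 at Mir9-3hg and 0.659 at 2810410L24Rik, through 0.492 at C130071C03Rik and 0.253 at Gm51670, to 0 at Gm4258 and Gm16013. The peaks of 21797 and 11144 bp thus lay over promoters below 0.6.

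**Figure D5:**
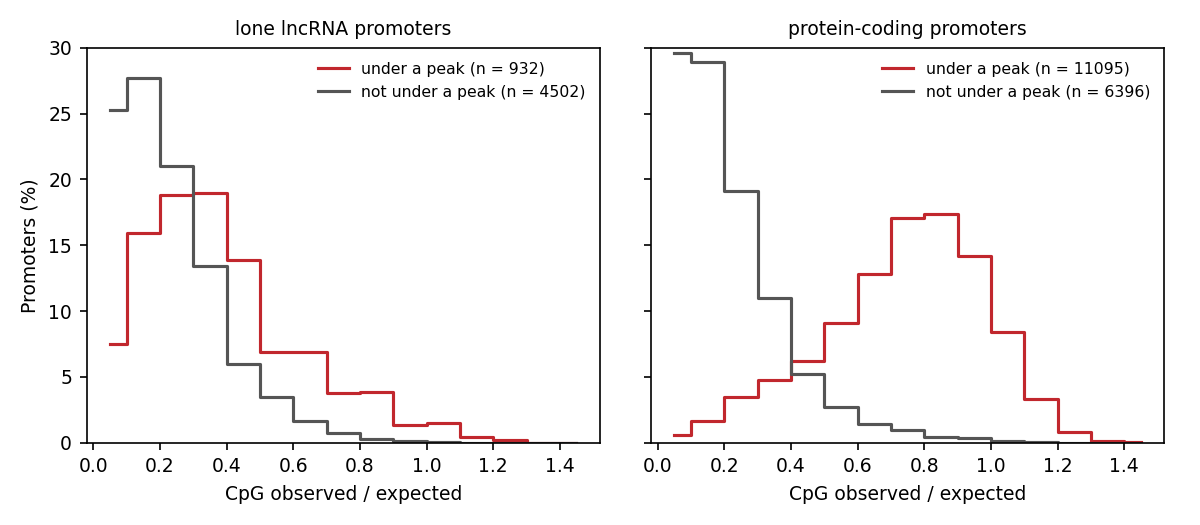
Distribution of the CpG observed over expected ratio (x axis) in promoters of lone lncRNA genes (left) and protein-coding genes (right), as a share of promoters (%, y axis), under a peak in red and not under one in grey. The red line of lone promoters has its median at 0.337, that of coding promoters at 0.767, and both grey lines lie below 0.2 at the median.

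Some short motifs differed in frequency between these promoters, as did base composition. Median GC content was 51% in lone promoters under a peak, 46% in those not under one and 61.7% in coding promoters under a peak. Each motif was searched on both strands of the 300 bases, and a match is a run of letters, not a shown binding site. GGGCGG, the GC box bound by SP factors, was in 24% of lone promoters under a peak, 5.62% of those not under one and 67.5% of coding promoters under a peak (35.9% of all promoters). CGGAAG, the core of ETS factor sites, was in 12%, 5.78% and 30.3% (17.2% of all). TATAAA, the TATA box, was in 12.6%, 19.5% and 6.66% (14.2% of all), and CCAAT in 32.2%, 38.5% and 38.5% (38% of all). TAATTA, the core of homeodomain sites such as those of DLX proteins, was in 9.55% of lone promoters under a peak (7.74 to 11.6%). It was in 8% of those not under one (7.22 to 8.83%) and 2.24% of coding promoters under a peak (5.32% of all). TGACAG, the core of sites of TALE homeodomain proteins such as MEIS2, was in 20%, 21.1% and 16% (19.3% of all). For TAATTA and TGACAG the intervals of lone promoters under and not under a peak overlapped. In coding promoters not under a peak the motifs were, in the order given, in 9.51%, 6.27%, 24.9%, 40.4%, 8.91% and 23.5%. In promoters of other lncRNA genes TAATTA was in 2.13% under a peak and 5.6% not under one.

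Restricting to promoters under a peak with a ratio below 0.6 left TAATTA in 10.3% of 764 lone promoters (8.27 to 12.7%) and 3.33% of 2852 coding promoters (2.7 to 4.06%). The median GC content in these sets was still unequal, 50.7% and 55.7%, and its part in the difference was not tested. TGACAG was in 21.3% and 20.5% of them, with overlapping intervals. Of the printed promoters, the first 2 and 2810410L24Rik hold GGGCGG, 2810410L24Rik and Gm4258 hold CCAAT, and Gm4258 holds TGACAG. None of the 6 holds TAATTA.

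Among 24 lncRNA genes known from forebrain and neural studies, 22 were lone by at least 1 end and 11 had a peak of the rule, with a median widest peak of 3736 bp. Miat (112213228 to 112228948 on chromosome 5), a neuronal nuclear RNA, had 3, of 4254 bp at the start and 4973 and 3183 bp at the far end, and 58.1% of its span was covered. Sox2ot, whose span holds the progenitor factor gene Sox2, had 1 of 3736 bp at its lower end, 87582 bp from a coding end. Lncpint had a start peak of 3037 bp, Tunar, which is needed for neural differentiation of stem cells, 1 of 2295 bp, Rmst, a partner of SOX2 in neurogenesis, 1 of 1119 bp and Snhg11, an RNA of neurons, 1 of 1026 bp. Pantr2, next to the POU factor gene Pou3f3, had a start peak of 2214 bp.

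All 11 lone genes of this list without a peak of the rule had an end peak that overlapped a coding gene or lay within 5 kb of one. At Dlx6os1 (Evf2), the RNA antisense to Dlx6, the start peak was 25330 bp wide and reached Dlx6. The same held at Sox1ot (21819 bp, over Sox1), Pax6os1 (17055 bp), Pantr1 (16887 bp), Six3os1 (12055 bp) and Lhx1os (11274 bp). The rule thus leaves out the broad peaks that these RNAs share with their factor genes.

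In the other groups, all 4 X-inactivation genes had a peak, with a median widest of 1626 bp. Xist, which coats the inactive X, had 2 near its start, of 1442 and 1072 bp, and its activators Jpx and Ftx had 1 each, of 1810 and 3301 bp. Firre, which helps anchor the inactive X, had a start peak of 990 bp. Of 4 lone imprinted genes, 3 had one: Meg3 (3848 bp, start), Mirg (2295 bp, far end) and H19, whose 2 peaks of 1043 and 327 bp included the Mir675 hairpin in the narrower. Of 15 lone broadly expressed genes, 11 had one (median widest 1458 bp), among them Snhg5 (3214 bp), Norad (1191 bp) and Dancr (1282 bp). Neat1 (6589 bp), Tug1 (1724 bp) and Mir22hg (3497 bp) had an end peak that the rule leaves out, over a coding gene or within 5 kb of one. The same held for the imprinted gene Rian (592 bp). Of 17 lone genes on the host list, 12 had a peak of the rule (median widest 4833.5 bp).

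Genes known from other organs were not without peaks. Of 8 lone ones, 4 had a peak of the rule, with a median widest of 1298 bp. Morrbid, known from short-lived myeloid cells, had a start peak of 1464 bp, and Hotair, in the HoxC cluster, 1 of 369 bp. Halr1, in the HoxA cluster, had no end peak. Fendrr (3217 bp) and Hottip (widest 3025 bp) had end peaks that the rule leaves out, over a coding gene or within 5 kb of one. These groups are small, and their shares were not tested against that of all lone genes (28.7%).

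Lone lncRNA genes whose nearest coding gene is a forebrain transcription factor gene had a higher share with a peak than the rest. Such genes numbered 250, of which 95 had one (38%, 32 to 44.3%), against 2285 of the other 8040 (28.4%, 27.4 to 29.4%). Of 86 factor genes listed, 64 had a lone lncRNA gene as neighbour and 44 had one with a peak. This was not counted for other coding genes. A gene with several lone neighbours is more likely to have one with a peak, so 44 of 64 is not a result about factor genes. Id4, an inhibitor of bHLH factors in neural progenitors, had 12 lone neighbours, 8 of them with a peak, of up to 2519 bp. Sox11, a SOX factor of immature neurons, had 6 of 9 and Pou3f1 6 of 8. Mn1 had 6 of 11, with C130026L21Rik under a start peak of 5527 bp, and Pou3f3 4 of 11, with Gm28175 under a start peak of 6607 bp. Tshz1, a zinc finger factor of the lateral ganglionic eminence lineage, had 3 of 3.

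Other factor genes had lone neighbours without a peak of the rule. Meis2, which the series' title names and which marks striatal projection neurons, had 2 and neither had one, and the same held for the 3 at Dlx6 and the 1 each at Foxp2 and Gsx2. Dlx2 had 1 of 2 (1458 bp). Measured over peaks, 109 of 2610 (4.18%, 3.44 to 5.02%) had a factor gene as nearest coding gene, against 3.31% of the peaks away from genes (3.08 to 3.55%), and these intervals overlapped.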

How the data were processed

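Per the labels, nuclei from E14.5 striatum gave 2 libraries. Per the submitters' processing notes, positions are on mm10, and Signac and Cell Ranger ATAC 1.2.0 had a part in making them. The peak caller, pooling of the libraries and treatment of doublets are not given in the sources used here. The authors deposited 1 list of peak positions without score, count or signal. Whether starts count from 0 or 1 is not stated, so peak positions are as deposited and may be off by 1 base. Of 49997 RefSeq entries (GRCm38.p6), 49591 with a position on a main chromosome were used. Strand and promoter sequence came from a RefSeq promoter table of 27024 genes. Shares were given exact Clopper-Pearson intervals (Python 3.11.15, pandas 2.3.3, scipy 1.17.1), and no test was run, since regions of 1 list are not replicates. The selection of peaks was tested on simulated genomes against a direct search. The peak rule, gene groups and factor genes were chosen with earlier results of these data known. Genes were named by group membership, widest peak, most peaks, greatest distance, neighbouring factor gene and printed promoter. The 23 tissue marker genes, the microRNA hosts named without a peak, the divergent pairs and the examples from each group were picked after values were seen. Alternatives varied window, distance, overlap, peak width and gene set.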

Additional observations from a re-analysis of the deposited data

How the results depend on the processing

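No paired analysis was possible because the deposited list holds no values per library. Of 67 values, for 10 results under up to 9 alternatives, 47 stayed within the interval of the reported value. For the number of peaks this meant within 1.5 times. The 47 include the CpG and motif values at windows of 500 and 2500 bp, which do not depend on the window and so could not move. A change of direction was looked for in the width difference only, and none occurred. The share in the broadest 1% fell from 1.61%, above the 0.998% of all peaks, to 0.605% by midpoint, below it. With a window of 500 bp the share of lone genes with a peak was 23.2%, that of starts 20.9%, the median width 845.5 bp and its difference from coding-end peaks -790.5 bp. With a window of 2500 bp there were 4171 peaks, the shares were 39.6% and 33.7%, the median width 621 bp, the difference -779 bp and the share in the broadest 1% 1.05%. With peak midpoints in place of any overlap the shares were 24.5% and 21.1%, the median width 679 bp and the share in the broadest 1% 0.605%. With only peaks wider than the median of all peaks there were 1578 peaks, 18.5% of genes with one, a median width of 1150.5 bp, a difference of -550.5 bp and 2.66% in the broadest 1%. Without lncRNA genes over other non-coding genes, which drops microRNA hosts, the share in the broadest 1% was 1.16%. Distance limits of 2000 and 10000 bp moved no result outside its interval. Depth is unknown, so a gene without a peak may be open below the level of calling, and any joining of close regions would raise widths.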

Other observations

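Peaks in the bodies of lone lncRNA genes, away from both end windows, were counted by midpoint in genes longer than 4000 bp with no coding gene over the span or within 5 kb of it. Genes with a peak at an end held 2028 inner peaks over 39.3 Mb, 51.6 per Mb, and 53% of the 1537 genes had at least 1. Genes without an end peak held 1975 over 74.49 Mb, 26.5 per Mb, with at least 1 in 32.8% of 3265 genes. The most inner peaks, 31, were in 2610307P16Rik, next to the SOX factor gene Sox4, followed by A930011G23Rik with 24 and 2610035D17Rik and Gm32647 with 23 each. Mir100hg held 21 besides its start peak. Zmiz1os1 held 17 and had no peak at a lone end.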
